A study of Mus musculus with 7 samples.

Results

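The comparison described here is that of bone-marrow-derived macrophages (BMDMs) transduced with AAV-Shisa3 and BMDMs transduced with AAV-GFP, outside the M1 genes that the study plotted for these samples. Its members were 8053 genes of the 55352 in the AAV table, chosen because they code for protein and averaged 5 TPM or more over the 4 samples. TPM is a level per transcript length, scaled to the same total in every sample. Of these, 25 were among the 29 plotted M1 genes and were set aside, which left 8028. BMDMs of the C57BL/6 strain were grown from mouse marrow with M-CSF and carried for 48 h an adeno-associated virus, with the CAG promoter driving GFP in 2 samples and Shisa3 in 2 samples. The sample labels call the first genotype WT and the second Shisa3 overexpression, the mice of the study were young adults of both sexes with no age or sex stated per sample, and no sample of untransduced cells was in the AAV table. In the other experiment of the series, WT BMDMs were left unstimulated or were stimulated with LPS, a component of the bacterial outer membrane, at 100 ng per mL for 2 h or for 4 h, and each of the 3 states was sequenced as a single library.

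Macrophages answer LPS through Toll-like receptor 4, which switches on NF-κB and, through type I interferon, antiviral genes. Shisa3 is a transmembrane protein of a family known for holding back Wnt and FGF receptors. Macrophages also carry programmes that LPS is less known for: BMP and TGF-β signalling through SMAD proteins, the NRF2 response to oxidants, heat shock and endoplasmic reticulum chaperones, and sterol synthesis under SREBP2.

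The samples expressed the genes that define macrophages. All 14 macrophage markers were detected, with sums between 41740 and 45891 TPM per sample, and over the 13 of them that were members the median log2 difference was -0.02, against -0.10 over all members, with 1 called higher, Cd14, where 2.44% of all members were. Neutrophil markers were not absent: the 13 markers summed to 698 and 690 TPM in AAV-GFP and 1214 and 807 TPM in AAV-Shisa3, and none was listed at 0 in every sample. The defining markers Ly6g and Cxcr2 had means of 0.152 and 0.182 TPM. Markers of T and NK, mast, dendritic, erythroid and endothelial cells summed to at most 11.5 TPM in any sample, and those of fibroblasts and B cells to at most 26.6 and 59.9 TPM. Values per sample summed to between 999778 and 999818, and the depth behind them is unknown.

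Shisa3 (chr5:67607882-67623552, GRCm38) was read at 7.88 and 10.85 TPM in AAV-GFP and 12.31 and 17.81 TPM in AAV-Shisa3. Both AAV-Shisa3 samples lay above both AAV-GFP samples, but the gap between the nearest samples of the groups was narrower than the difference within either group. The log2 difference was 0.63 ± 0.22 (SE, n = 2 per group) with an adjusted p of 0.138 in limma's trended test with Benjamini-Hochberg adjustment, so the gene that names the vector did not pass the threshold. It did pass with the sample number as a block (limma adjusted p = 0.0287) and without a filter on low values (0.00591). The study itself reported Shisa3 as overexpressed in BMDMs 48 h after AAV-Shisa3, showing both its mRNA and its protein. How far reads from the vector enter the RNA-seq values was not tested. In the LPS experiment Shisa3 was counted on 1 read at 0 h and 3174 reads at 4 h. Hspa8, the constitutive HSP70 chaperone that the study followed alongside SHISA3, was read at 3497.04 and 3692.96 TPM in AAV-GFP and 2593 and 2820.15 TPM in AAV-Shisa3, and fell by 0.41 on the log2 scale (SE 0.08, limma adjusted p = 0.0436). That fall lost its call once sample medians were aligned, here called centring (limma adjusted p = 0.115).

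Of the members outside the M1 genes, 196 were higher in AAV-Shisa3 (2.44% of 8028) and 399 were lower (4.97%), by limma on log2(TPM + 1) with Benjamini-Hochberg adjustment over 11218 genes and a threshold of 0.05. The called rises had a median log2 difference of 0.66 and the called falls -0.64, and the size passed 1 in 30 rises and 24 falls. In all 196 and all 399 genes both AAV-Shisa3 samples lay on one side of both AAV-GFP samples. Over all 8028 genes that was so for 19.1% on the higher side and 43.7% on the lower. With 2 samples per group a called gene is unlikely to overlap, so this is no separate support for the calls. Across members the median absolute log2 difference was 0.18 between the groups, against 0.11 within AAV-GFP and 0.11 within AAV-Shisa3. At an unadjusted p under 0.05, 711 members outside the M1 genes were higher (8.86%) and 1833 lower (22.8%). The 25 M1 genes that were set aside were plotted by the study from these samples and are not independent evidence, and 21 of them were called higher and 0 lower (limma, same threshold), which with them made 217 rises (2.69%) and 399 falls (4.95%) of 8053 members.

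These calls rest on a spread shared across genes, because 2 samples per group cannot give an exact permutation p under 0.333. Without the intensity trend in limma, 1 member was called higher, Tmeff1, and 0 lower, although all 196 and all 399 genes kept an unadjusted p under 0.05, and leaving out any 1 of the 4 samples left at most 14 members higher and 1 lower. The median member stood 0.10 lower on the log2 scale in AAV-Shisa3, and centring turned the balance: 35.2% of the called members were higher as deposited and 64.5% after centring. All 196 rises kept their call after centring and 194 of the 399 falls did. Nothing in the labels says that the samples of a group came from separate cultures or mice, so the p-values measure only the spread between these samples, and in RNA from a whole culture fewer cells of a type and less RNA per cell cannot be told apart.

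**Figure D1:**
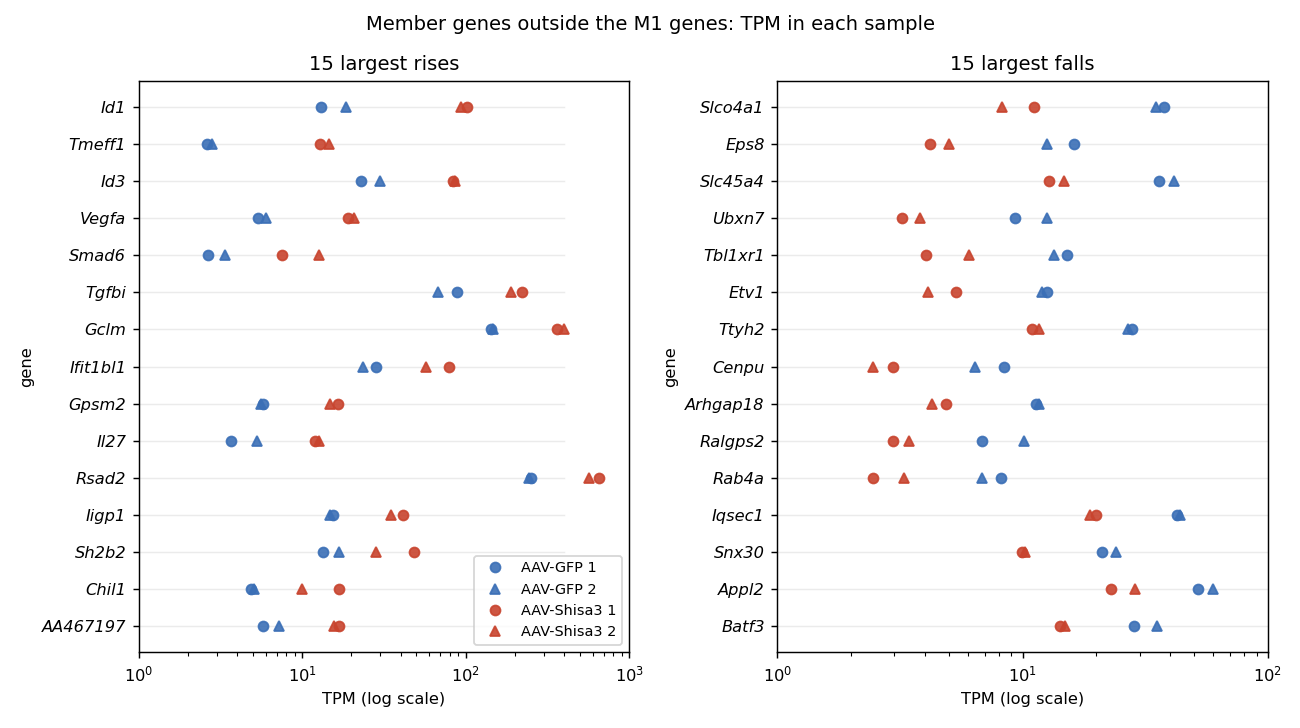
TPM on a log axis in each of the 4 samples for the 15 members outside the M1 genes with the largest called rises (left) and the 15 with the largest called falls (right), where circles are the first and triangles the second sample of a group. The genes run from Id1 (log2 difference 2.57) to Slco4a1 (-1.82). That both AAV-Shisa3 samples lie on one side of both AAV-GFP samples was a condition for choosing them.

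Among BMP and TGF-β signalling genes, 5 of 20 members rose and 2 fell, against 2.44% and 4.97% of all members, and they held the largest rise of all. BMP ligands act through SMAD proteins to induce inhibitors of DNA binding (Id genes) and inhibitory SMADs, which feed back on the pathway. Id1 (chr2:152736251-152737410), which blocks basic helix-loop-helix factors, was read at 13 and 18.65 TPM in AAV-GFP and 101.32 and 93.59 TPM in AAV-Shisa3. That was the largest difference of any member outside the M1 genes, a log2 rise of 2.57 ± 0.17 (SE, n = 2 per group, limma adjusted p = 0.0113). Id3, of the same family, was read at 22.84 and 29.95 TPM in AAV-GFP and at 83.27 and 86.37 TPM in AAV-Shisa3 (log2 rise 1.66). Smad6, an inhibitory SMAD, was low throughout, with 2.65 and 3.36 TPM against 7.51 and 12.72 TPM (log2 rise 1.44). Tgfbi, a secreted matrix protein named for its induction by TGF-β, rose from 88.08 and 67.80 to 219.75 and 188.95 TPM (log2 rise 1.39). The groups lay far apart in Id1, Id3 and Tgfbi, whereas in Smad6 the gap between the groups was narrower than the difference between the AAV-Shisa3 samples.

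The median log2 difference of the list was 0.01, against -0.10 over all members, and the fifth rise was Skil, a SMAD co-repressor, at 0.58. The genes that fell were Smad3, a receptor-activated SMAD (-0.66), and Tgfbr2, the type II receptor of TGF-β (-0.60). Skil and Smad3 were named after their values were seen. Tgfbr2 lost its call on centring (limma adjusted p = 0.0574). The letters GGCGCC, to which SMAD proteins can bind, stood in the 250 bases before the start of 1 of the 3 higher genes with a RefSeq window, Tgfbi, before 4 of 12 other genes of the list, before 19.6% of members and in 9.59% of all windows of that length, a gene having 1 window or more.

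LPS did not move these genes alike. Relative to the median member, the log2 change at 4 h of LPS was 2.09 for Id1 and 2.84 for Id3, whereas it was -1.25 for Smad6 and -1.14 for Tgfbi. Smad3 and Tgfbr2 stood lower after LPS, at -3.26 and -1.81. Id1 was counted on only 7 reads at 0 h and 45 reads at 4 h, and Smad6 on 37 and 19 reads.

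**Figure D2:**
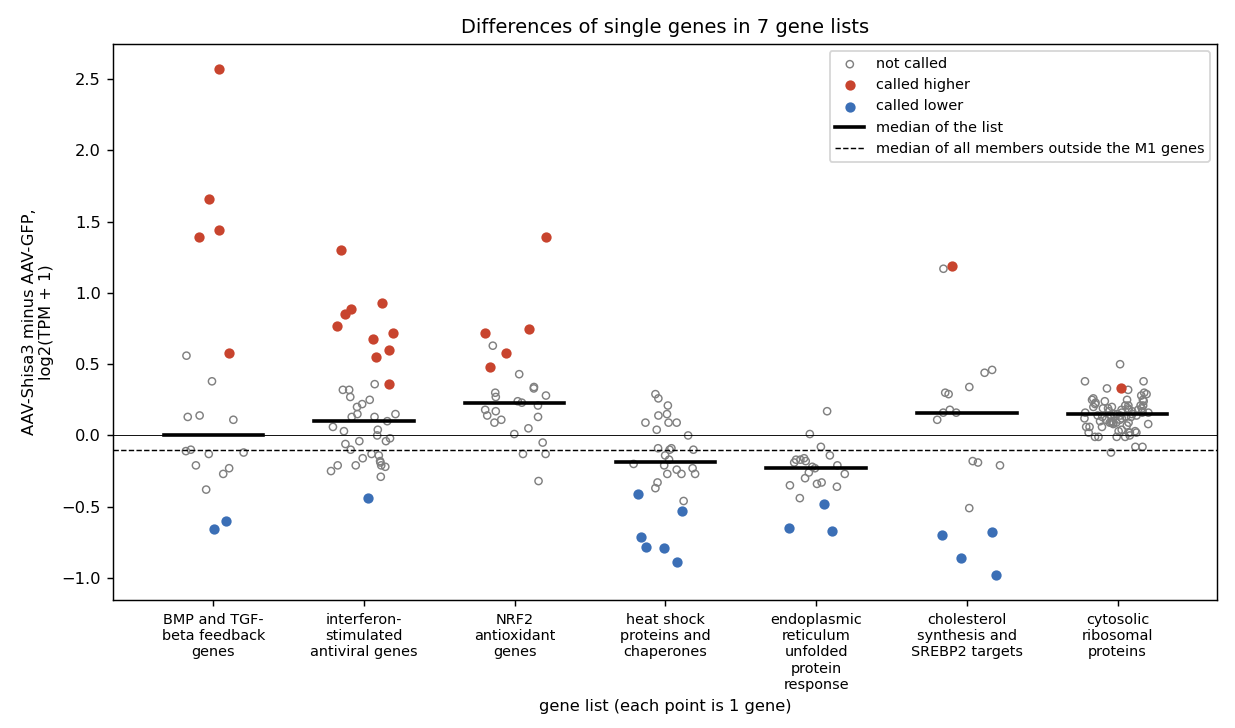
Log2 difference between AAV-Shisa3 and AAV-GFP for each member of 7 gene lists, with called genes filled, list medians as bars and the median of all members outside the M1 genes (-0.10) as a dashed line. The BMP and TGF-β list holds a few large rises around a median of 0.01, the chaperone and unfolded protein lists lie low (-0.18 and -0.23), and the ribosomal proteins form a narrow band around 0.15.

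Of 27 genes of the NRF2 response 5 rose and 0 fell. NRF2 is a transcription factor that is released when cells meet oxidants or electrophiles, and its targets make and recycle glutathione and thioredoxin and supply NADPH. Over all members the shares were 2.44% and 4.97%. In the list, 19 genes had both AAV-Shisa3 samples above both AAV-GFP samples, against 19.1% of all members, and the median log2 difference was 0.23. Gclm (chr3:122245557-122270732), the modifier subunit of the enzyme that starts glutathione synthesis, was read at 142.38 and 147.15 TPM in AAV-GFP and 363.49 and 397.75 TPM in AAV-Shisa3. Its log2 rise of 1.39 ± 0.08 (SE, n = 2 per group) had the smallest adjusted p of the genes named here (limma, 0.00962). Srxn1, sulfiredoxin, rose from 73.38 and 74.29 to 119.25 and 131.45 TPM, and Txnrd1, thioredoxin reductase, from 123.78 and 144.50 to 203.45 and 241.32 TPM. In both genes the groups lay well apart, with the samples of a group closer together in Srxn1 than in Txnrd1. Me1, malic enzyme, and Pgd, of the pentose phosphate pathway, both sources of NADPH, rose by 0.58 and 0.48 on the log2 scale, Pgd being named after its values were seen.

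Other well-known members did not pass. Hmox1, heme oxygenase, had 1707.80 and 1592.17 TPM against 2009.91 and 2177.85 TPM (0.34, limma adjusted p = 0.0636), Gclc, the catalytic partner of Gclm, had 0.63 (0.06 in the same test), and Nqo1 had 0.27 (0.32). These genes were named after their values were seen. After LPS the median relative change of the list at 4 h was 0.22, with 6 members at least 2-fold higher and 3 at least 2-fold lower. Gclm itself stood at -1.02 after 4 h of LPS, while Txnrd1 stood at 2.44.

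The letters TGACNNNGC, the core of the antioxidant response element through which NRF2 acts, were looked for on both strands of the 250 bases before each RefSeq start. They stood before 2 of the 5 higher genes, Gclm and Txnrd1, before 5 of 17 other genes of the list, before 14.1% of members and in 10.2% of all 32851 windows. The windows of both genes are shown because Gclm carries the finding and the pair moved in opposite directions with LPS. They are from RefSeq on GRCm38.p6, 5′ to 3′ on the gene's strand and ending 1 base before the start, with the matched letters in capitals (in both windows they lie on the opposite strand). A match describes the letters and shows no binding.
Gclm (chr3:122245307-122245556, plus strand): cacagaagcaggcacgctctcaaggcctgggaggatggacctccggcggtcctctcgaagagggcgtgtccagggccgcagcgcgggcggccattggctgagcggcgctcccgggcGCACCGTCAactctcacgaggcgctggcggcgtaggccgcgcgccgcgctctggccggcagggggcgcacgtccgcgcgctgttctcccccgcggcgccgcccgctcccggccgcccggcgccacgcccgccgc
Txnrd1 (chr10:82858956-82859205, plus strand): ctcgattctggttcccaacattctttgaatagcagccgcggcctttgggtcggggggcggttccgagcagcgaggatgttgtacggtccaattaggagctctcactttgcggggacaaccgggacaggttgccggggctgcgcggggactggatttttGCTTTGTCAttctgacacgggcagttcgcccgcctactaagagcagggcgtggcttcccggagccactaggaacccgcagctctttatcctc

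Of 32 heat shock proteins and chaperones 6 fell and 0 rose. HSP70 and HSP90 fold client proteins with the help of co-chaperones, and the genes of both are induced by heat shock factor. Falls made up 4.97% of all members. The median log2 difference was -0.18 (-0.07 after centring), and 19 members had both AAV-Shisa3 samples below both AAV-GFP samples, against 43.7% of all members. Ahsa1 (chr12:87266479-87273998), the activator of the HSP90 ATPase, fell from 563.44 and 492.45 to 311.67 and 260 TPM. That log2 fall of 0.89 ± 0.12 (SE, n = 2 per group, limma adjusted p = 0.022) was the largest among genes that averaged 100 TPM or more. Dnaja1, a J-domain co-chaperone of HSP70, fell from 241.71 and 213.76 to 132.55 and 129.22 TPM. Fkbp4, an immunophilin of HSP90 complexes, fell from 37.48 and 40.66 to 22.07 and 22.70 TPM.

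The remaining falls were smaller. Chordc1, another HSP90 co-chaperone, fell by 0.71, Hsph1, a nucleotide exchange factor of HSP70, by 0.53, and Hspa8 by 0.41 on the log2 scale. Hsph1, named after its values were seen, lost its call on centring as Hspa8 did (limma adjusted p = 0.0611). The genes best known for induction by heat did not pass: Hspa1a, inducible HSP70, had 7.54 and 7.78 TPM against 7.98 and 10.98 TPM, and Hsp90aa1 had 305.16 and 307.20 TPM against 280.15 and 294.63 TPM (limma adjusted p = 0.355 and 0.425), and both were named after their values were seen. At 4 h of LPS the list stood on the other side, with a median relative change of 0.49, 10 members at least 2-fold higher and 1 at least 2-fold lower. Dnaja1 was among those higher, at 2.02, whereas Ahsa1 stood at -0.25.

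The letters GAANNTTC, made of a pair of facing heat shock element units, read the same on both strands. They stood before 2 of the 5 lower genes with a window, Dnaja1 and Fkbp4, before 6 of 21 other genes of the list, before 6.11% of members and in 6.69% of all windows. Both windows are given, with the letters in capitals, because these co-chaperones fell side by side with AAV-Shisa3 and stood apart after LPS (2.02 and -0.88 at 4 h).
Dnaja1 (chr4:40722218-40722467, plus strand): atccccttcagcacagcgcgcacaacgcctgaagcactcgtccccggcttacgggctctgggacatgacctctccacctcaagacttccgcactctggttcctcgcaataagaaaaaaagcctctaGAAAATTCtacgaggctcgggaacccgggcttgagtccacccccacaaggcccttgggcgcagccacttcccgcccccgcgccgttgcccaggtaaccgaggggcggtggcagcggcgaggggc
Fkbp4 (chr6:128438657-128438906, minus strand): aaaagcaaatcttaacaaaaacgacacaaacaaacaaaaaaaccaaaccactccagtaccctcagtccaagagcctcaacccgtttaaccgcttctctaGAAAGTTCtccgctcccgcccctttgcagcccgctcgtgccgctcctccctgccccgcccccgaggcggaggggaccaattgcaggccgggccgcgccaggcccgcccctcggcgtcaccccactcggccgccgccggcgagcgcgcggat

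Of 23 genes of the endoplasmic reticulum unfolded protein response 3 fell and 0 rose, against 4.97% and 2.44% of all members. This response raises chaperones and degradation factors when proteins misfold in the secretory pathway. In 20 of them both AAV-Shisa3 samples lay below both AAV-GFP samples, against 43.7% of all members. The median log2 difference was -0.23, and -0.11 after centring. Atf6, one of the stress sensors of that compartment, fell from 31.85 and 36.68 to 22.28 and 20.13 TPM. Pdia4, a disulfide isomerase, fell from 81.40 and 79.67 to 56.36 and 46.38 TPM, and Herpud1, of the degradation machinery, from 84.24 and 84.42 to 61.96 and 58.56 TPM. Atf6 kept its call after centring (limma adjusted p = 0.046), and Pdia4 and Herpud1 did not (0.0622 and 0.0632). Hspa5, the main chaperone of the compartment, had 805.17 and 896.43 TPM against 655.87 and 677.87 TPM and did not pass (limma adjusted p = 0.0613). It was named after its values were seen. After 4 h of LPS the list stood at a median relative change of 0.64, with Hspa5 at 2.35.

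Of the integrated stress response, 2 of 24 members were higher and 3 lower, against 2.44% and 4.97% of all members. Atf4, its central transcription factor, fell from 213.40 and 211.60 to 153.68 and 148.63 TPM, a call that centring took away (limma adjusted p = 0.0518). Cebpb, a transcription factor of inflammatory macrophages, and Slc7a5, an amino acid transporter, rose by 0.48 and 0.57 on the log2 scale.

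Of 43 interferon-stimulated antiviral genes 10 rose (2.44% of all members did) and 1 fell (4.97% of all members), Sp100 (-0.44, lost on centring at a limma adjusted p of 0.0707). The median log2 difference was only 0.10. Rsad2 (chr12:26442746-26456452), the antiviral protein viperin, rose from 251.63 and 244.11 to 657.83 and 568.94 TPM (log2 rise 1.30 ± 0.09, SE, n = 2 per group, limma adjusted p = 0.0113). Ifi205, of the interferon-inducible DNA sensor family, rose from 40.38 and 40.47 to 81.66 and 74.35 TPM, and Ifit2, which binds viral RNA, from 223.66 and 201.42 to 424.63 and 345.13 TPM. The first AAV-Shisa3 sample was the higher of the pair in each. Isg15, a ubiquitin-like protein and among the most abundant genes of the list, had 2023.43 and 1744.52 TPM against 1963.11 and 1698.35 TPM, with overlapping groups. Isg15 and Sp100 were named after their values were seen.

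All 43 members of that list were at least 2-fold higher after 4 h of LPS, and the median relative log2 change was 3.46. The AAV groups did not overlap in 20 that stood higher with AAV-Shisa3 (19.1% of all members did) and in 11 that stood lower (43.7% of all members). Ifit1bl1, which is outside the list, rose by 1.35 on the log2 scale, and sharing of reads with related Ifit genes was not tested. Ifit3b and Ifit3 are near copies of one another, so that reads may have been split between them. Their rises (0.89 and 0.68) are uncertain. Ifit3 was named after its values were seen. Iigp1, an interferon-inducible GTPase also outside the list, rose from 15.51 and 14.87 to 41.35 and 35.15 TPM.

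The letters of the interferon-stimulated response element, TTTC, any 2 bases and TTTC again, were found on either strand before 5 of the 9 higher genes with a window (Ifi205, Ifit1, Ifit3, Ifit3b and Rsad2), before 7 of 23 other genes of the list, before 3.72% of members and in 2.98% of all windows. The Rsad2 window holds 1 copy and that of Ifit1, which rose by 0.72, holds 2, shown in capitals. They are given because Rsad2 had the largest rise of the list, and Ifit1 as 1 of 3 higher genes with a pair of matches, the others being Ifit3 and Ifit3b. Ifit1 was named after its values were seen.
Rsad2 (chr12:26456453-26456702, minus strand): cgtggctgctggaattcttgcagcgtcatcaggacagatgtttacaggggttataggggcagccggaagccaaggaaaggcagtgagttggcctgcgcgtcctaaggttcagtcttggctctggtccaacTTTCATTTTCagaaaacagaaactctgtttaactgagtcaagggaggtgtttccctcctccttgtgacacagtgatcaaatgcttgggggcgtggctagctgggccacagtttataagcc
Ifit1 (chr19:34640639-34640888, plus strand): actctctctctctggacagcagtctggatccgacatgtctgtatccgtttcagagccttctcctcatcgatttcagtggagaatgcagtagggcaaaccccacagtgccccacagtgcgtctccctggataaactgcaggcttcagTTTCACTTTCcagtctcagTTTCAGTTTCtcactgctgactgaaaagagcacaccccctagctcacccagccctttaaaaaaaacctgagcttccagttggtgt

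Secreted signals also gave rises outside the plotted genes. Of 21 cytokines and growth factors 6 were higher and 1 lower, and of 12 chemokines 4 were higher and 0 lower, where the shares over all members were 2.44% and 4.97%. Vegfa, the main angiogenic growth factor, rose from 5.39 and 5.97 to 19.01 and 20.77 TPM (log2 rise 1.64 ± 0.12, SE, n = 2 per group, limma adjusted p = 0.0113). Il27, a cytokine of the IL-12 family, rose from 3.67 and 5.25 to 12.03 and 12.69 TPM. Il10, an anti-inflammatory cytokine, rose from 30.24 and 34.31 to 56.79 and 53.22 TPM, in the same samples in which Tnf, a central inflammatory cytokine, rose by 0.73 on the log2 scale. The remaining rises were Osm and Igf1 (0.67 and 0.45). Tnf, Osm and Igf1 are named here after their values were seen. Gdf15, a stress-induced cytokine, fell from 49.41 and 34.93 to 22.48 and 21.33 TPM and lost that call on centring (limma adjusted p = 0.0707). Ccl4, which attracts T cells and monocytes, rose from 1581.64 and 1546.08 to 3023.19 and 2747.70 TPM, and Ccl7, Ccl9 and Cxcl16 rose by 0.61, 0.49 and 0.36. After LPS the relative change of Vegfa at 4 h was -2.28, against 8.28 for Il27, 4.37 for Il10 and 8.02 for Ccl4.

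Of 22 purinergic, adenosine and other G protein-coupled receptors 6 were higher and 1 lower, beside 2.44% and 4.97% of all members. Among the rises were Ccrl2, a receptor that binds chemokines, at 0.81, which was named after its values were seen, and C5ar1, a complement receptor, at 0.46. Adora2b, an adenosine receptor, rose from 14.41 and 14.05 to 32.21 and 34.20 TPM, Hcar2, the receptor of niacin and ketone bodies, from 27.23 and 29.18 to 64.78 and 53.75 TPM, and Gpr84, a receptor of medium-chain fatty acids, from 215.35 and 249.60 to 399.53 and 442.69 TPM. P2rx7, the ATP-gated channel that feeds the inflammasome, fell from 28.40 and 30.30 to 15.28 and 16.65 TPM. The direction was that of LPS in all 4 genes, with relative changes at 4 h of 6.05, 6.97, 5.77 and -2.70. Tlr2 and Cd14, which sense bacterial lipids, rose by 0.76 and 0.78, and Ticam2, an adaptor of Toll-like receptor 4, fell by 0.62.

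Of the immediate-early list, which holds transcription factors and other early genes, 5 of 19 members were higher and 0 lower. These were Ier2, Zfp36, Fos, Junb and Dusp1, with log2 rises of 0.69, 0.68, 0.67, 0.55 and 0.41. Dusp1 was named after its values were seen. Zfp36, which destabilises cytokine mRNA, rose from 155.56 and 157.02 to 261.59 and 242 TPM. Of the NF-κB subunits and kinases 2 of 14 were higher, Nfkb1 (0.54) and Ikbkg (0.52), and of the negative regulators of NF-κB 2 of 18 were higher, Bcl3 (0.61) and Nfkbia (0.36). No member of either list was lower, and the medians were 0.03 and 0.09. Over all members 2.44% were higher and 4.97% lower, with a median of -0.10.

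**Figure D3:**
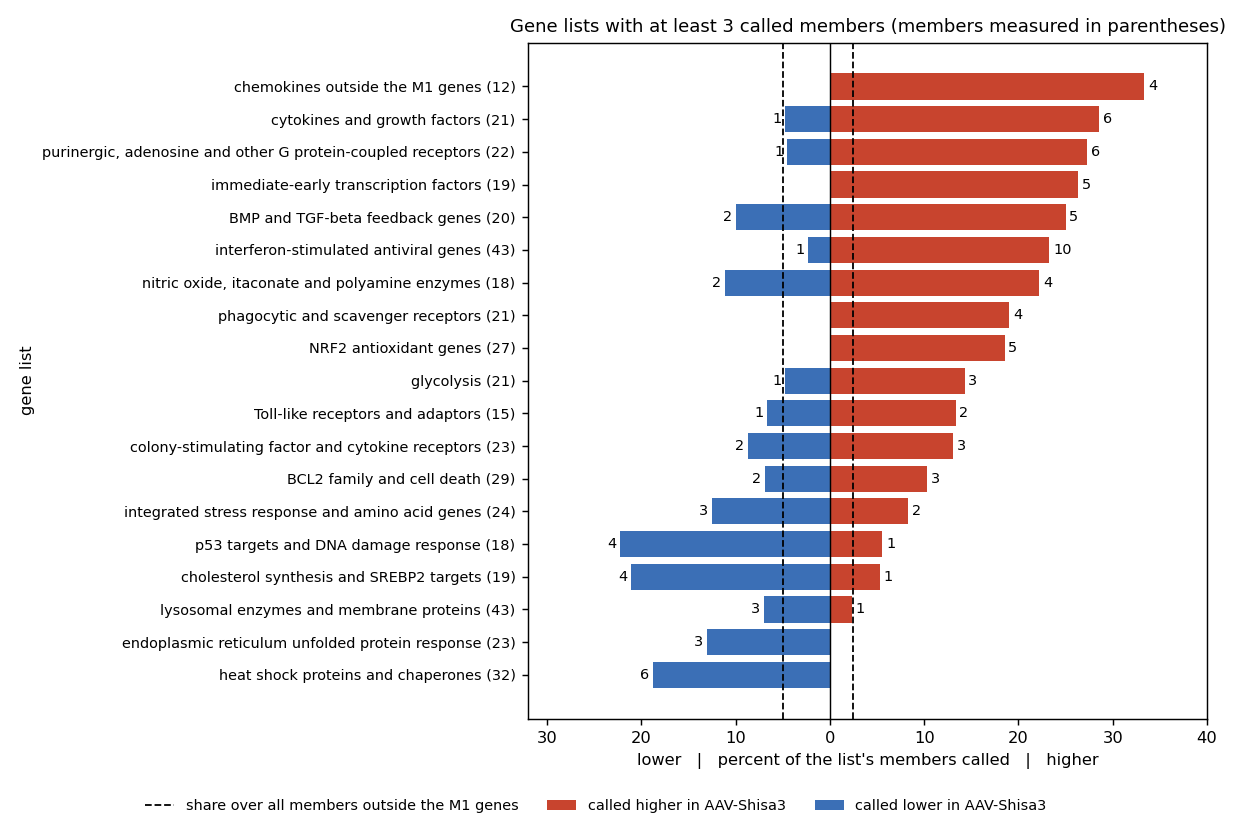
Percent of the members of 19 gene lists called higher (right) or lower (left) in AAV-Shisa3, with the number called at each bar and dashed lines at the shares over all members outside the M1 genes (2.44% and 4.97%). Lists of at least 12 members with at least 3 calls are shown. Chemokines and cytokines reach furthest to the higher side (4 of 12 and 6 of 21), and chaperones and the unfolded protein response have calls on the lower side alone.

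Of 19 genes of sterol synthesis and other SREBP2 targets 1 rose and 4 fell, with a median log2 difference of 0.16, against 2.44% and 4.97% of all members and their median of -0.10. SREBP2 raises sterol synthesis when cell cholesterol is low. Hmgcs1, which makes the precursor of mevalonate, fell from 19.84 and 17.25 to 8.93 and 8.81 TPM. Insig1, which holds SREBP in the endoplasmic reticulum, fell from 13.78 and 12.94 to 7.54 and 8.19 TPM. Msmo1, a sterol demethylase named after its values were seen, fell by 0.68. The fatty acid desaturases Fads2 and Scd1 rose, by 1.17 and 1.07, both from under 6 TPM in AAV-GFP. They were the 2 rises among 21 members of the LXR list, which had 0 falls.

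Hmgcs1, Insig1 and Msmo1 stood higher after 4 h of LPS, with relative changes of 2.46 for Hmgcs1, 1.53 for Insig1 and 1.87 for Msmo1. The letters TCACNCCAC, the core of the sterol response element, stood before 1 of the 3 lower genes with a window, Hmgcs1, before 0 of 12 other genes of the list, before 1.22% of members and in 1.05% of all windows. The Hmgcs1 window is shown with the letters in capitals, since that gene had the largest fall of the list.
Hmgcs1 (chr13:119690101-119690350, plus strand): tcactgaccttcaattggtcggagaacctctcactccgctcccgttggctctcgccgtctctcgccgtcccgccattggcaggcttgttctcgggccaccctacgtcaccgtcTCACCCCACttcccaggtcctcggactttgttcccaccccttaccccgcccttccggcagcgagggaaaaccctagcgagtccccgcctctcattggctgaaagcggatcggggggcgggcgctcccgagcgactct

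The lists that follow are to be read against 2.44% higher and 4.97% lower over all members. In glycolysis 3 of 21 members were higher, Slc2a6 (0.72), Slc2a1 (0.59) and Pfkp (0.43), the first 2 being sugar transporters, and Hk3 was lower (-0.35, lost on centring at a limma adjusted p of 0.15). Acod1, which makes itaconate, rose from 1263.21 and 1247.92 to 2013.77 and 1954.71 TPM, and Gch1, needed for the cofactor of nitric oxide synthase, rose by 0.46. Of 18 targets of p53 and DNA damage genes 1 was higher, Gadd45g (0.99), and 4 lower. Ccng1, Sesn1 and Phlda3 were among the falls at -0.51, -0.57 and -0.73, the last 2 lost on centring, and Cdkn1a, the p21 inhibitor of the cell cycle, fell by 0.33 from a high level, named after its values were seen and also lost on centring. Steap3, an iron reductase, fell by 0.95.

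Of 11 markers of alternative (M2) activation outside the plotted genes 4 were higher (Vegfa, Chil3, Il10 and Stab1) and 1 lower, Il4ra, the receptor of IL-4. Chil3, a chitinase-like protein, was read at 31.19 and 30.26 TPM in AAV-GFP and 60.51 and 48.10 TPM in AAV-Shisa3, and Il4ra fell from 268.63 and 280.92 to 217.52 and 205.01 TPM, a call lost on centring (limma adjusted p = 0.108). Chil1, a relative of Chil3, had 4.86 and 5.07 TPM against 16.80 and 10 TPM. Both chitinase-like genes and the neutrophil granule genes Camp (13.57 and 13.88 TPM against 40.19 and 24.74 TPM) and Ngp (47.85 and 51.61 TPM against 123.71 and 83.21 TPM) were highest in the first AAV-Shisa3 sample. Of 8 neutrophil markers among the members 2 were called higher (2.44% of all members were) and 0 lower, and 6 had both AAV-Shisa3 samples above both AAV-GFP samples (19.1% of all members). Among the other neutrophil markers listed, S100a8, S100a9, Ltf, Mmp8, Retnlg and Ly6g were also highest in the first AAV-Shisa3 sample. By contrast, the granule genes Prtn3, Elane and Ctsg were highest in the second AAV-Shisa3 sample, and Csf3r and Cxcr2 in the second AAV-GFP sample. The markers thus did not all share the sample pattern of Chil1 and Chil3. What part neutrophils have in the rises of Chil1 and Chil3 was not tested.

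The shares of all members, 2.44% higher and 4.97% lower, are also the measure for the next lists. Of the class I list 0 of 23 members were higher and 1 lower (H2-T23, which has near copies and is uncertain), of the class II list 0 of 10 and 1 (Ctsl), both lost on centring (limma adjusted p = 0.0968 and 0.138), and of costimulatory and checkpoint ligands 0 of 13 and 1. The last was Vsir, the checkpoint protein VISTA, which fell from 171.17 and 171.61 to 104.40 and 94.71 TPM (log2 fall 0.78 ± 0.08, SE, n = 2 per group, limma adjusted p = 0.0174). None of 56 respiratory chain genes, 31 proteasome genes, 16 nucleic acid sensors and 16 Wnt genes was called in either direction by limma, and the Wnt list had a median of -0.23. Of the ribosomal proteins 1 of 79 was called higher (Rpl36, 0.33) and 0 lower, yet 49 had both AAV-Shisa3 samples above both AAV-GFP samples, against 19.1% of all members, and none below. Of 39 transcription and chromatin regulators 0 were higher and 2 lower, Hdac5 and Ezh1, both lost on centring, with 24 below in both samples, against 43.7% of all members, and a median of -0.24. Ribosomal mRNAs are short and those of chromatin regulators long. The log2 difference between the groups fell with transcript length across members (Spearman's rho -0.18), and differences between samples of a group also went with length (0.32 within AAV-GFP and 0.17 within AAV-Shisa3, second sample against first). After the length trend was removed the medians of these lists were 0.19 and -0.08, against -0.01 over all members.

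Most called genes stood outside the function lists: 119 of the 196 rises (60.7%) and 349 of the 399 falls (87.5%), as did 86.6% of all members outside the M1 genes. Tmeff1 (chr4:48585174-48663131), a transmembrane protein with follistatin domains, rose from 2.61 and 2.81 to 12.83 and 14.51 TPM (log2 rise 1.98 ± 0.14, SE, n = 2 per group, limma adjusted p = 0.0113). Gpsm2, a regulator of spindle orientation, rose from 5.76 and 5.59 to 16.63 and 14.89 TPM, and Tubb6, a tubulin, from 127.61 and 134.33 to 227.02 and 266.30 TPM. Sh2b2, an adaptor of receptor signalling, rose less evenly, from 13.48 and 16.75 to 48.27 and 28.41 TPM. AA467197, induced by LPS at a relative log2 change of 8.78, rose from 5.72 and 7.25 to 16.67 and 15.67 TPM.

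The largest fall was that of Slco4a1 (chr2:180456245-180474867), an organic anion transporter, from 37.68 and 34.88 to 11.11 and 8.23 TPM (log2 fall 1.82 ± 0.15, SE, n = 2 per group, limma adjusted p = 0.0142). Eps8, which caps actin filaments, fell from 16.15 and 12.53 to 4.20 and 5.03 TPM, and Slc45a4, a solute carrier, from 36 and 41.48 to 12.78 and 14.70 TPM. Ubxn7, Tbl1xr1, Etv1 and Ttyh2 fell by 1.39, 1.36, 1.22 and 1.21. Among the rest of the 15 largest, Arhgap18, Ralgps2, Rab4a and Iqsec1, which are small GTPases or their regulators, fell by 1.17, 1.16, 1.14 and 1.12, and the endosomal proteins Appl2 and Snx30 fell by 1.09 and 1.09. Cenpu, of the centromere, and Batf3, a transcription factor of dendritic cells, fell by 1.18 and 1.07. The called falls had longer transcripts than the rises, with medians of 3808 and 3024 nucleotides against 3280 over all members.

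The second question was whether LPS moved these genes the same way. A single library per state allows no test, and a change is given relative to the median member, so that the library factor matters little (with reads scaled to library totals, 7 genes moved to the other side of 2-fold above at 4 h). Of the 196 rises, 128 (65.3%) were at least 2-fold higher after 4 h of LPS, against 20.2% of all members outside the M1 genes, and 22 (11.2%) were at least 2-fold lower, against 16.3%. Of the 399 falls, 176 (44.1%) were at least 2-fold lower, against 16.3%, and 48 (12%) were at least 2-fold higher, against 20.2%. At 2 h the shares in the shared direction were 61.7% of rises (background 16%) and 30.1% of falls (13.2%). The 2 h library stood apart in the 13 mitochondrially encoded genes, where the median member of that list stood at -3.51 relative to all members, compared with 0.03 in the 4 h library, and the part of this in the 2 h shares was not tested. Of the genes that LPS moved in the shared direction, 117 of the 121 rises that were higher at 2 h were also higher at 4 h, while the falls had 120 genes lower at 2 h and 176 at 4 h, 98 of them at both. Across members the log2 differences of the experiments had a Pearson correlation of 0.35 and a Spearman correlation of 0.31, given as a description over 8028 genes that are not independent of each other.

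**Figure D4:**
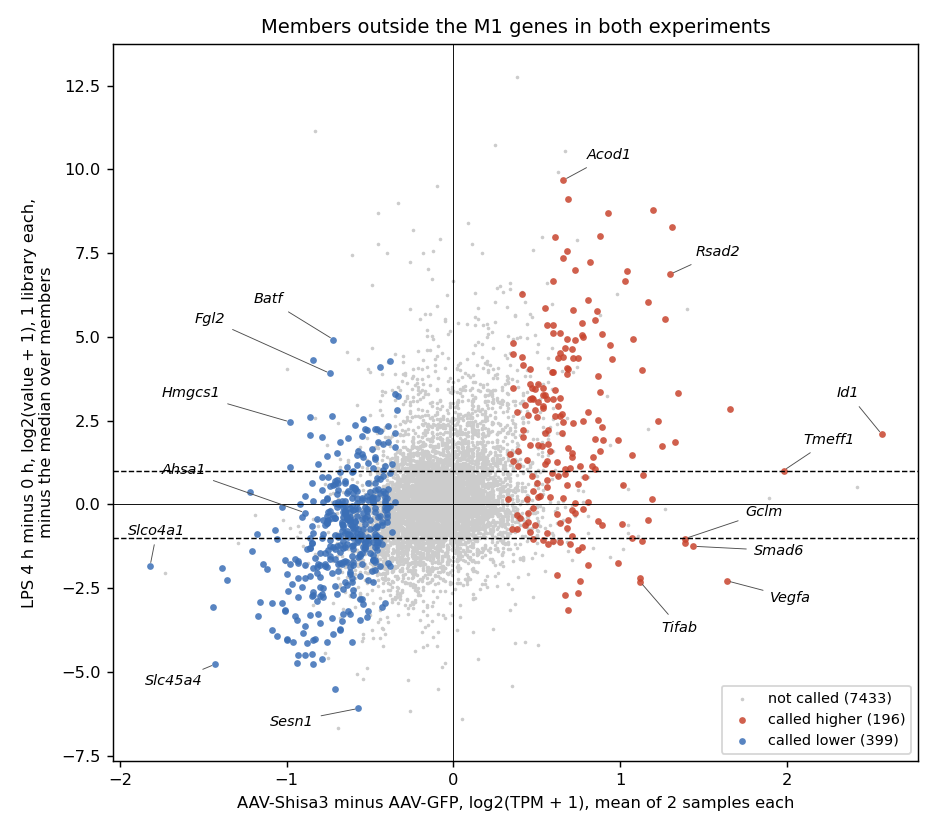
Each point is a member outside the M1 genes, with the log2 difference between AAV-Shisa3 and AAV-GFP on the x axis and the log2 change at 4 h of LPS relative to the median member on the y axis, and dashed lines at 2-fold. Of the 196 called rises 128 lie above the upper line and 22 below the lower one, among them Vegfa, Gclm and Smad6, and of the 399 called falls 176 lie below and 48 above.

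Genes that stood higher in both experiments included Il27, Il10, Ccl4, Adora2b, Hcar2, Gpr84 and Acod1, the last with a relative log2 change of 9.68. Genes that stood lower in both included Slc45a4, at -4.77, Snx30, at -3.74, Arhgap18, at -3.32, and Sesn1, a stress-induced regulator of growth signalling, at -6.09. Among the rises, Tmem37, Cd300a, Ydjc, Tifab and Uck2 were lowest after LPS, at -3.15, -2.70, -2.65, -2.31 and -2.29. Cd300a, an inhibitory receptor of myeloid cells, rose from 11.60 and 11.88 to 19.34 and 19.07 TPM, and Tifab, a relative of an NF-κB adaptor, from 8.81 and 9.25 to 19.60 and 22.07 TPM. In both genes the groups lay well apart.

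Among the falls, Batf, Lrrc4, Il4ra, Dtx2 and Fgl2 were highest after LPS. Batf, an AP-1 transcription factor of immune cells, fell from 166.39 and 173.01 to 99.80 and 106.06 TPM, whereas its reads went from 103 to 4070 at 4 h (relative log2 change 4.92). Fgl2, a fibrinogen-like immune regulator, fell from 236.93 and 261.72 to 148.79 and 148.78 TPM and stood at 3.91 after LPS. Il4ra and Dtx2 stood at 4.27 and 4.09, and neither kept its call on centring (limma adjusted p = 0.108 and 0.0609). Lrrc4 was counted on 2 reads at 0 h and 89 at 4 h, too few at the start for its fold to be given. Tmeff1 had 3 reads at 0 h and 10 at 4 h, too few to place it with either direction. Both genes were still counted in the shares above, Tmeff1 at a relative log2 change of 1.01.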

How the data were processed

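RNA-seq of BMDMs was deposited as tables by gene. The 4 AAV samples were deposited by the authors with 2 decimals as values that sum to just under 1000000 per sample and were therefore read as TPM, an inference from the values. The 3 LPS libraries were deposited by the authors as a signal in which every value was a whole multiple of what 1 read is worth (100% within 0.05 reads), that is, read counts divided by 1 factor per library. The labels name the build mm9, while positions and sequences here are from GENCODE M21 and RefSeq on GRCm38. The aligner, counter and annotation are not given in the sources used here. Recovered totals were 15588502, 7263258 and 32659392 reads at 0 h, 2 h and 4 h, and the intervals such totals would allow cover counting error only. TPM keeps no depth.

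Genes were matched to the protein-coding class of the LPS table by symbol (7838) or GENCODE identifier (215), and 12 genes at 5 TPM or more whose symbols had turned into dates were left out. AAV groups were compared with limma 3.58.1 in R 4.3.3, with the intensity trend, on log2(TPM + 1) over 11218 rows with a mean of at least 1 TPM. A fold change on this scale understates that of low genes. P-values were adjusted by Benjamini-Hochberg over those rows at 0.05, no covariate was used, and the procedure was tested on simulated data. LPS changes are log2(value + 1) at a time point minus 0 h, minus the median over members. Named genes were the 15 largest rises and falls, the 5 largest of each at 100 TPM or more, up to 4 called genes per list, the 5 most opposite to LPS in each direction, Shisa3 and Hspa8, and other genes were chosen after their values were seen. The largest genes and those most opposite to LPS were taken from called genes whose groups did not overlap. The members and the 47 function lists and 9 cell marker lists were chosen with earlier results of these data known. Sequence windows were the 250 bases before each RefSeq start. Pseudocount, filter, scaling, trend, length, pairing and left-out samples were varied. A few genes counted in the lists are not reported here by name.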

Additional observations from a re-analysis of the deposited data

How the results depend on the processing

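The number of genes called depended strongly on the fit, and so did the balance of higher to lower calls. For member genes higher in AAV-Shisa3 and member genes lower in AAV-Shisa3 the counts were 217 and 399, and limma called 1 and 0 without the intensity trend, 353 and 194 after centring, 6 and 0 with both, 350 and 251 with the length trend removed, 460 and 785 without a filter on low values and 384 and 770 when the members were fitted alone. The combination of both and the length correction were chosen after seeing the data. With the sample number as a replicate block the counts were 366 and 747, but nothing in the labels ties samples of the same number together, and 2 pairs cannot decide it (deviations from the group means correlated at 0.213). The block changed the call of Shisa3 (0.63, limma adjusted p = 0.0287). Leaving out 1 sample gave 0 to 14 members higher and 0 to 1 lower, with 0 and 0 without either AAV-GFP sample, 6 and 1 without the first AAV-Shisa3 sample and 14 and 1 without the second, where the lone sample is assumed to vary like the other group. At an unadjusted p under 0.05 these 4 fits still held between 481 and 600 members higher and between 1007 and 1386 lower. Shisa3 also passed without a filter (0.63, limma adjusted p = 0.00591) and under no other alternative, with differences between 0.38 and 0.87 and adjusted p between 0.0813 and 0.39. The robust fit, a pseudocount of 0.1, 1 TPM in every sample and matching by symbol alone moved neither count by more than 1.5 times. Of the 138 called genes named by rule, 111 kept their call after centring and 123 with length removed. The share of rises that LPS raised at 4 h, 65.3% against 20.2% of all members, was 50% at 4-fold (all members 9.26%) and, against the same 20.2%, 58% with calls after centring, 46.4% at an unadjusted p under 0.05 and 33.3% to 50% without 1 AAV-Shisa3 sample (1 of 3 and 3 of 6 genes). The share of falls that LPS lowered, 44.1% against 16.3%, was 54.6% at 1.5-fold (all members 27%), 21.1% at 4-fold (4.47%), 30.1% at 2 h (13.2%) and, against 16.3%, 52.1% with calls after centring, 30.3% at an unadjusted p and 100% without 1 AAV-Shisa3 sample (1 of 1 gene each). Without either AAV-GFP sample no gene outside the M1 genes was called and no share exists. The cause of these shifts was not tested.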

Other observations

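Several gene families outside the function lists held called genes. They were chosen after their values were seen, and no test of a family was made. Over all members 2.44% were higher and 4.97% lower, with a median log2 difference of -0.10. All 3 kinesin-2 motor subunits fell: Kif3a, which carries cargo towards microtubule plus ends, was read at 16.68 and 16.75 TPM in AAV-GFP and 8.34 and 7.60 TPM in AAV-Shisa3, and Kif3b and Kif3c fell by 0.61 and 0.79 on the log2 scale. Of 26 sorting nexins, which bend and sort endosomal membranes, 7 fell and 0 rose, with a median log2 difference of -0.26. Snx8 fell from 134.98 and 130.96 to 78.24 and 76.76 TPM. Of 5 subunits of the WASH complex, which builds actin on endosomes, 3 fell, Washc1, Washc2 and Washc5, and all 3 lost their calls on centring (limma adjusted p = 0.0554, 0.0904 and 0.0637). Of 4 NFAT factors, calcium-regulated transcription factors, Nfatc2 fell from 20.70 and 20.88 to 8.78 and 10.13 TPM and Nfatc1 by 0.85, and of 3 VAV exchange factors Vav2 and Vav3 fell by 0.97 and 0.59, the latter lost on centring (limma adjusted p = 0.0659).

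On the higher side, both metallothioneins rose, Mt1 from 129.23 and 125.52 to 196.85 and 175.36 TPM and Mt2 by 0.56. Of 6 guanylate-binding proteins, interferon-inducible GTPases, 3 rose and 0 fell. Gbp4 rose from 3.85 and 3.95 to 8.75 and 9.98 TPM, and Gbp3 and Gbp9 by 0.73 and 0.60. Of 10 members of the CD300 family of activating and inhibitory receptors, 2 rose (Cd300a and Cd300lf) and 3 fell (Cd300ld, Cd300ld4 and Cd300ld5). The others were not called. The 3 that fell are near copies whose reads may have been split among them.

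Beside the same 2.44% higher and 4.97% lower, of the function lists not described above, phagocytic and scavenger receptors had 4 higher and 0 lower of 21 (Itgb5, Stab1, Scarb1 and Cxcl16), receptors of cytokines 3 and 2 of 23, BCL2 family and cell death genes 3 and 2 of 29, nitric oxide, itaconate and polyamine enzymes 4 and 2 of 18, and macrophage transcription factors 2 and 0 of 16 (Tfec and Cebpb). The rises of the cell death list included Bcl2a1b (0.60) and Bcl2a1d (0.66), near copies whose reads may have been split between them, so both are uncertain. Tnfrsf21, a death receptor, rose from 5 and 5.75 to 11.65 and 11.66 TPM, and Csf2rb, the shared chain of the GM-CSF receptor, by 0.71. Lysosomal genes had 1 higher and 3 lower of 43, matrix proteases 1 and 1 of 19, complement 1 and 1 of 14, lipid storage 0 and 2 of 22, iron handling 0 and 2 of 15, and hypoxia 0 and 1 of 15. Mmp13, a collagenase, rose from 110.84 and 134.88 to 184.17 and 208.24 TPM. Plau, urokinase, fell by 0.82 and lost its call on centring (limma adjusted p = 0.0651). ERK feedback, Fc receptor, integrin and spliceosome lists had 1 higher and 0 lower of 12, 8, 17 and 42, and actin, translation factor, cell cycle and autophagy lists 0 higher and 1 lower of 35, 37, 31 and 26. Among the falls of these lists, Casp9, Oaz2, Tgfbr2, Cd55 (complement) and Aco1 (iron handling) lost their calls on centring. So did Smpd1 and Ctsl (lysosomal) and Acsl3 and Plin3 (lipid storage). Tpm1, Eif3a and Ccnd3, the only falls of the actin, translation factor and cell cycle lists, lost theirs too. Neither the 13 mitochondrially encoded genes nor the 3 histone genes held a call by limma.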
